A study of Drosophila melanogaster with 6 samples.

Results

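The heat shock and cognate chaperone genes described here are 9 Drosophila genes: Hsp83, Hsc70-3, Hsc70-4, Hsc70-5, Hsp68, Hsp22, Hsp23, Hsp26 and Hsp27. They were found by name in the annotation of the deposited tables, as exon, mRNA and intron features whose first listed transcript belongs to one of these genes. This gave 58 features (30 exon, 14 mRNA and 14 intron) of 123041 annotated features, and 9 of the 13336 genes that have a feature of these classes. Reads were summed by gene and class, so that a gene has an exon, an mRNA and an intron entry where such features are listed. Hsp68, Hsp23, Hsp26 and Hsp27 have exon features only, and Hsp22 has no intron feature. The files do not define the mRNA class, whose features are named by transcript and are counted apart from the exon features.

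The libraries came from OSS cells, a Drosophila line of ovarian somatic sheath cells, in which Asterix (Gtsf1) was expressed from a plasmid (pAWG) with the act5c promoter and a TEV-Strep tag at the C-terminus. All 6 libraries share this transfection, and cells were harvested 72 hours after it. eCLIP fixes RNA to protein with ultraviolet light (UV), shortens the RNA with RNase, and reads by sequencing what a pull-down of the tagged protein recovers. The groups were 1 input and 1 pull-down (IP) library from cells without UV, and 2 input and 2 IP libraries from cells given 400 mJ of UV at 254 nm. Asterix was supplied by transient transfection, and no group lacks the tagged protein, so RNA held by the beads alone has no library of its own. The labels do not say whether the 2 crosslinked libraries of a kind came from separate cultures, so the spread between them may be technical.

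Chaperones hold, fold and refold other proteins, and the heat shock families are named by the approximate size of their proteins. Cognate members are made in unstressed cells, while inducible members are switched on by heat shock factor after heat and other stress. In flies the small heat shock proteins are also induced by the moulting hormone ecdysone. Hsp90 and Hsc70 chaperones help to load small RNAs into Argonaute proteins, the family to which Piwi, the partner of Asterix in transcriptional silencing, belongs.

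Annotated reads numbered 12391586 to 13658478 in the inputs and 2018241 to 2921685 in the IP libraries, and ribosomal RNA took 85.6% to 87.0% and 60.1% to 69.5% of them. Levels are given in CPM, each library's reads scaled to its annotated total, so 3 reads, used as the floor, weigh 0.220 to 0.242 CPM in an input and 1.03 to 1.49 CPM in an IP library. All 6 ovarian somatic markers examined (tj, fs(1)Yb, piwi, zfh1, Fas3 and arm) were above the floor in every input, at a summed exon level of 210 to 276 CPM. Of 6 germline markers (vas, aub, AGO3, nos, osk and bam), osk had no exon reads and none of the others reached the floor in any input. Exon reads of arx, the gene of the tagged protein, were below 3 in each library.

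Hsp83 and Hsc70-4 held 88.7% to 91.5% of the exon reads of the 9 genes in every library. Hsp83, the cytosolic Hsp90 of flies, lies at 3L:3192969-3197059 (coordinates from RefSeq, Release 6 assembly). Among the inputs its exons had 183 CPM without UV and 220 and 226 CPM with UV. Among the IP libraries they had 176 CPM without UV and 139 and 190 CPM with UV. The crosslinked inputs were the highest of the 6 libraries, and the IP library without UV lay between the crosslinked IP libraries. Exon features carried by both listed Hsp83 transcripts took nearly all of these reads. Exon features of a single transcript held 1.54% and 1.20% of the gene's exon reads in the inputs with UV.

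Hsc70-4, the main cytosolic Hsp70 cognate, which among other tasks strips clathrin from coated vesicles, lies at 3R:15242687-15246614. Its input exon levels were 193 CPM without UV and 223 and 240 CPM with UV, and its IP levels were 229 CPM without UV and 169 and 193 CPM with UV. Both crosslinked inputs were above the non-crosslinked input, while both crosslinked IP libraries were below the non-crosslinked IP.

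Hsc70-3 is the BiP-type cognate of the endoplasmic reticulum. Its input exon levels were 25 CPM without UV and 33.1 and 38.5 CPM with UV, and its IP levels were 19.98 CPM without UV and 17.1 and 26.5 CPM with UV. As for Hsp83, the crosslinked inputs stood highest and the crosslinked IP libraries lay on both sides of the non-crosslinked one. Hsc70-5, the mitochondrial cognate, had input exon levels of 5.44 CPM without UV and 8.40 and 9.74 CPM with UV, and IP levels of 9.40 CPM without UV and 7.53 and 9.07 CPM with UV. For this gene the non-crosslinked input was the lowest of the 6 libraries, and the other 5 overlapped.

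Hsp68, an inducible member of the Hsp70 family, had 5.72 CPM in the input without UV and 3.55 and 7.03 CPM in those with UV. Its IP levels were 4.58 CPM without UV and 3.17 and 2.05 CPM with UV. The crosslinked inputs differed from each other by more than either differed from the input without UV, and every crosslinked IP library was below every crosslinked input. The values rest on 71.5, 44 and 96 reads in the inputs and on 9.25, 7 and 6 reads in the IP libraries; reads are divided between features, so a count need not be whole.

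The small heat shock genes Hsp22, Hsp26, Hsp23 and Hsp27 lie together within 12764 bp at 3L:9372931-9385694, and few reads fell on them. Their summed exon reads were 32.7 without UV and 62 and 59.5 with UV among the inputs, and 6.83 without UV and 15.9 and 9.14 with UV among the IP libraries. Hsp26, whose product is cytosolic, had 1.60, 2.10 and 2.42 CPM in the inputs (non-crosslinked first) and 0.99, 3.72 and 1.08 CPM in the IP libraries. It was above the floor in every input, and in the IP libraries without UV and with UV (replicate 2) it was near the level of 3 reads. Hsp27, whose product is found in the nucleus, had 0.88, 1.61 and 1.03 CPM in the inputs and 1.98, 0.91 and 1.37 CPM in the IP libraries, where 2 to 4 reads carried each value. Hsp23 had 1, 10 and 6 exon reads in the inputs and 0, 3 and 2 in the IP libraries. Hsp22, whose product is mitochondrial, had 0.67, 6 and 6.5 exon reads in the inputs and 0.83, 2.67 and 0 in the IP libraries. For Hsp22 and Hsp23 the crosslinked inputs were above the floor and the non-crosslinked input was below it; no fold is given, as neither gene had more than 1 read in a library without UV. Hsp22 lies wholly within the annotated span of CG4456, whose exons had 0 to 4.5 reads, and reads of the pair cannot be told apart without a stated strand.

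**Figure D1:**
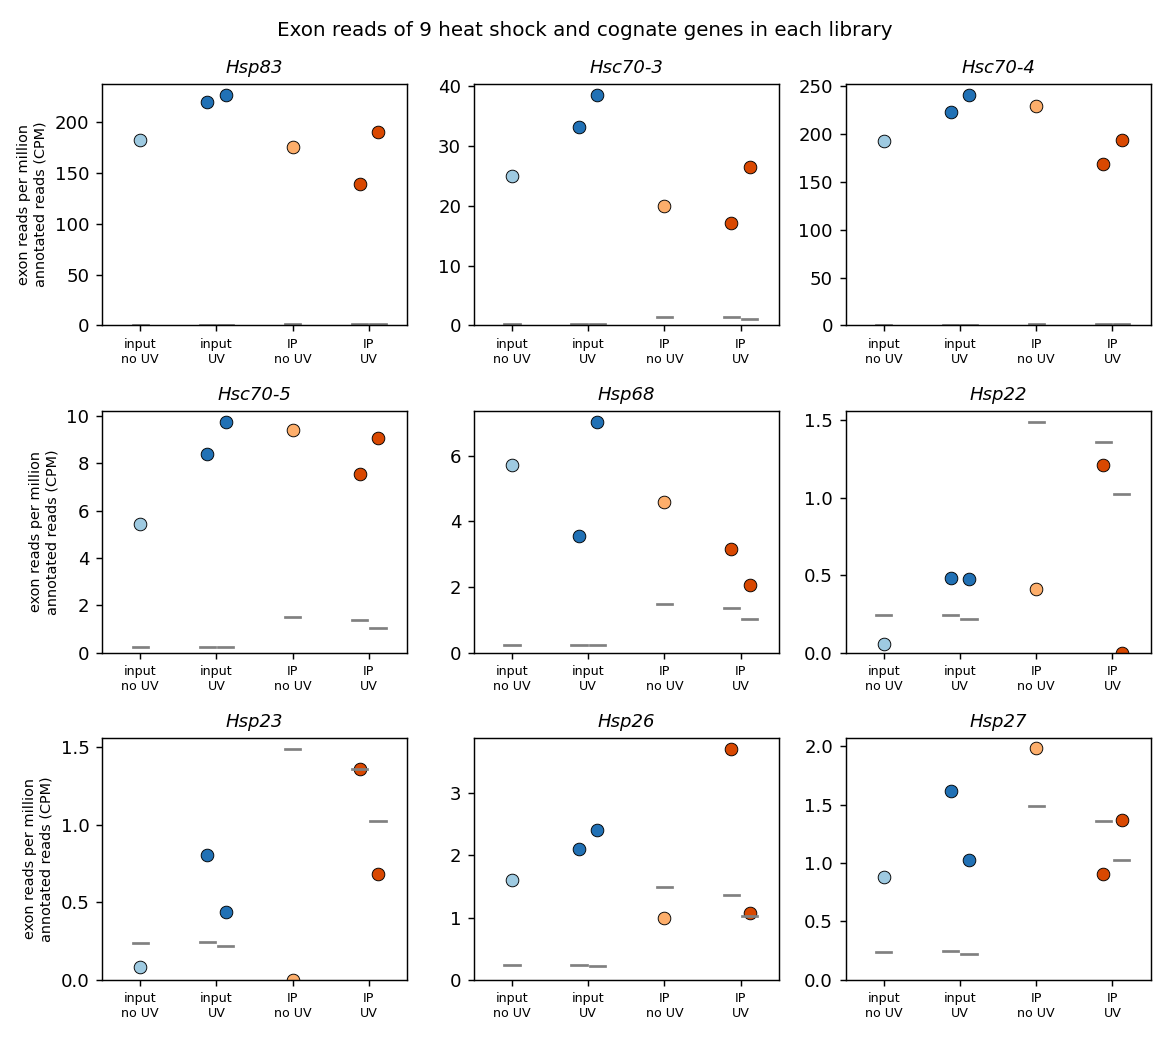
Exon reads of each gene in CPM (vertical axis, from 0, a separate scale per gene) for the 6 libraries, with 1 point per library: input without UV, input with UV, IP without UV and IP with UV. Grey dashes mark the level of 3 reads. Every gene but Hsp68 has both crosslinked inputs above the non-crosslinked input, while Hsp22 and Hsp23 lie near or under the dashes outside the crosslinked inputs.

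Levels of different genes were compared per kilobase of gene span, introns included, over exon, mRNA and intron reads together. In the crosslinked inputs Hsc70-4 had 59.6 ± 3.5 and Hsp83 55.3 ± 0.95 CPM per kilobase (mean ± SD, n = 2 each), with the Hsc70-4 libraries (57.1 and 62.1) above those of Hsp83 (54.7 and 56.0). In the crosslinked IP libraries the 2 genes overlapped, at 45.0 and 50.1 for Hsc70-4 and 34.3 and 47.2 for Hsp83. Hsc70-3 followed at 6.80 ± 0.89 CPM per kilobase and Hsc70-5 at 3.05 ± 0.35. Hsp68 at 2.37 ± 1.10 and Hsp26 at 2.23 ± 0.22 could not be ordered against each other, nor Hsp68 against Hsc70-5. Hsp27 had 0.81 ± 0.26, Hsp23 0.70 ± 0.29 and Hsp22 0.24 ± 0.01 CPM per kilobase, of which Hsp27 and Hsp23 overlapped (SD, n = 2 for each gene). The cytosolic cognate and Hsp90 genes were thus the most abundant per length in these cells, and the inducible Hsp68 and small heat shock genes were low.

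The first comparison asked whether the input level of these RNAs differed between cells with and without UV. Exon levels of Hsp83, Hsc70-3, Hsc70-4, Hsc70-5, Hsp26 and Hsp27 were higher in both crosslinked inputs than in the non-crosslinked input, but no member passed the test. The test was edgeR's quasi-likelihood test over 13009 entries in one fit of all 6 libraries, with TMM scaling and Benjamini-Hochberg adjustment at 0.05. It called 0 of the 9 exon entries, where 4.41% of all tested exon entries were called (298 of 6756); at an unadjusted p under 0.05 it had Hsc70-5 and Hsp23, beside 16.3% of tested exon entries. The fitted log2 change was 0.63 ± 0.24 (SE) for Hsc70-5 with an edgeR adjusted p of 0.102, and its 95% interval ran from 0.14 to 1.13. It was 0.42 ± 0.25 for Hsc70-3, 0.19 ± 0.30 for Hsp83, 0.17 ± 0.29 for Hsc70-4 and -0.23 ± 0.29 for Hsp68 (log2 ± SE). The members' median of 0.42 is to be read beside a median of 0.34 over all exon entries. The Hsp83 interval ran from -0.42 to 0.81 and the Hsc70-4 interval from -0.43 to 0.77 on the log2 scale, so smaller changes were not detectable. With only entries of at least 10 reads in every library, Hsc70-5 passed (0.72, edgeR adjusted p = 0.0212), as did 35.3% of the 3149 entries so tested. The non-crosslinked side is 1 library, taken to vary as the others do, and in bulk RNA fewer cells that make a transcript and less of it per cell cannot be told apart.

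The same question for the pull-down gave no call either. With UV against without, edgeR called 0 of the 9 exon entries, where 7.93% of tested exon entries passed (536 of 6756), and 0 had an unadjusted p under 0.05, as 20.9% of tested exon entries did. The log2 changes were 0.09 ± 0.31 for Hsp83, 0.35 ± 0.35 for Hsc70-3, -0.16 ± 0.29 for Hsc70-4, 0.01 ± 0.40 for Hsc70-5 and -0.63 ± 0.69 for Hsp68 (SE). The Hsp83 interval ran from -0.55 to 0.73 and that of Hsc70-4 from -0.76 to 0.45. Under another scaling the signs of Hsp83, Hsc70-4 and Hsc70-5 turn, so no direction is given for them. The difference between both UV effects, tested as an interaction, was called for 0 of the 9 exon entries, beside 1.44% of tested exon entries (97 of 6756). With mRNA and intron entries counted too, 0 of 15 member entries passed for UV in IP and 0 of 15 for the interaction, beside 13.5% and 4.78% of all tested entries.

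The third comparison, crosslinked IP against crosslinked input, is the only one with 2 libraries on each side. Hsp83, Hsc70-3, Hsc70-4, Hsc70-5 and Hsp68 were lower in the IP, and the 4 small heat shock genes did not pass. For Hsp83 the log2 change was -1.46 ± 0.25 (SE), with an edgeR adjusted p of 6.39e-05. For Hsc70-3 it was -1.69 ± 0.23 (edgeR adjusted p = 4.53e-06), for Hsc70-4 -1.37 ± 0.24 (7.98e-05) and for Hsc70-5 -1.12 ± 0.24 (0.000673). Hsp68 had the lowest value of the 9, -2.06 ± 0.40 (edgeR adjusted p = 0.000262). These calls are to be set against 32.4% of all tested exon entries called lower (2186 of 6756), and the members' median of -1.15 against -0.51 over all exon entries. Hsp26 had -1.07 ± 0.48 (edgeR adjusted p = 0.0649) and Hsp27 -1.15 ± 0.62 (0.123), both on few IP reads.

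These changes are relative to the other RNAs of each library, and the scaling sets their size. With library size alone the median over all entries moved from -0.03 to 0.96, and Hsp83 came to -0.44 (edgeR adjusted p = 0.0983), Hsc70-4 to -0.35 (0.192) and Hsc70-5 to -0.12 (0.800), none of them called. Relative to the median of each scaling, the 4 scalings gave -1.42 to -1.22 for Hsp83, -1.66 to -1.47 for Hsc70-3, -1.34 to -1.14 for Hsc70-4, -1.09 to -0.90 for Hsc70-5 and -2.02 to -1.84 for Hsp68. Subtracting the median takes out most of what a scaling changes, so the closeness of these values was built in and does not bear on the calls. DESeq2's Wald test did not call Hsc70-5 (-0.97, adjusted p = 0.191) or Hsp68 (-1.86, adjusted p = 0.0571). All 5 calls held without each crosslinked library in turn.

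The log2 ratio of IP over input was also taken in CPM, with every crosslinked IP library set against every crosslinked input, a pairing chosen after seeing the data. For Hsc70-5 it was 0.79 without UV and between -0.37 and 0.11 over the 4 pairings with UV, and it stayed above all 4 with rRNA left out of the totals (-0.83 against -1.52 to -0.99). For Hsc70-4 it was 0.25 without UV and -0.51 to -0.20 with UV, and for Hsp83 -0.06 against -0.70 to -0.21. Without rRNA this order was lost: Hsp83 had -1.67 against -1.85 to -1.32, and Hsc70-4 -1.37 against -1.66 to -1.31. The values without UV lay within the range with UV on both totals for Hsc70-3 and Hsp68. None of these differences passed as an interaction, as given above. The germline markers, which were under the floor in the inputs, summed to 10.6 to 14.2 CPM in the IP libraries, of which aub took 2.73 CPM without UV and 13.5 and 8.59 CPM with UV. The ovarian somatic markers summed to 361 to 694 CPM in the IP libraries, with 517 CPM of piwi without UV and 207 and 144 CPM with UV. Without piwi they summed to 177 to 217 CPM in the IP libraries and 186 to 241 CPM in the inputs, and in crosslinked IP against crosslinked input 4 of the 6 were lower and 1, piwi, was higher. The part of these RNAs in the members' values was not tested.

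**Figure D2:**
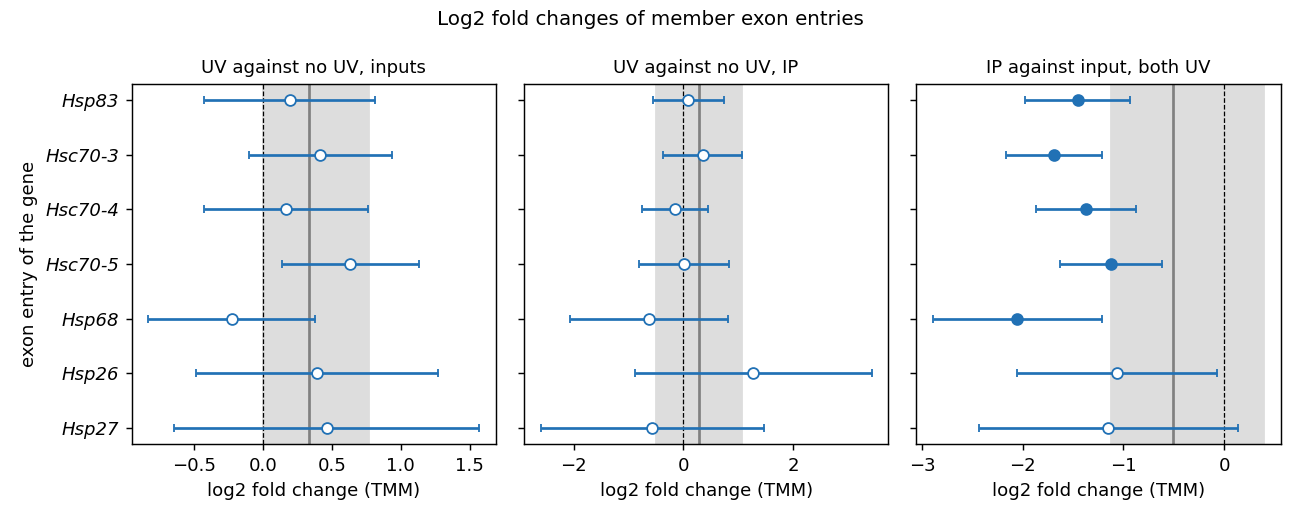
Log2 fold changes of the exon entries of 7 genes (points) with 95% intervals (bars) from the fit with TMM scaling, for UV in inputs, UV in IP and crosslinked IP against crosslinked input; filled points passed at an adjusted p of 0.05. The grey band is the interquartile range and the grey line the median over all 6756 exon entries tested; the filled points are those of Hsp83, Hsc70-3, Hsc70-4, Hsc70-5 and Hsp68 in the third comparison, between -2.06 and -1.12.

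Intron reads were a small share of Hsp83 and Hsc70-4. Over all genes introns held 40.9% of exon, mRNA and intron reads in the input without UV, 28.5% and 26.6% of those with UV and 48.3% to 50.7% of the IP libraries. Hsp83, which has an intron in its 5′ untranslated region, had an input intron share of 0.59% without UV (14 reads, 95% Wilson interval 0.35% to 0.99%) and 0.11% and 0.10% with UV (3 reads each). Its IP libraries had 1 read without UV and 0 and 7 reads with UV. Hsc70-4 had an input intron share of 0.60% without UV (95% Wilson interval 0.37% to 1.01%) and 0.11% and 0.21% with UV. Its IP share was 1.12% without UV and 3.33% and 0.87% with UV. Among the inputs the intron share of both genes was thus lower with UV, as it was over all genes. Neither gene came near the share of all genes in any library.

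Intron features are listed only for Hsp83, Hsc70-3, Hsc70-4 and Hsc70-5, and mRNA features only for these genes and Hsp22. Intron entries passed the filter on low counts for 2 of the 9 genes, Hsp83 and Hsc70-4, and mRNA entries for 4 of 9. The other genes thus failed the filter or had no such feature. The Hsc70-4 intron entry was higher in the crosslinked IP than in the crosslinked input, at 5.89 and 1.71 against 0.24 and 0.51 CPM. Its log2 change was 2.16 ± 0.62 (SE, edgeR adjusted p = 0.00654), beside 56% of all tested intron entries called higher and a median of 1.29 over them. The call rests on 13 and 5 IP reads and was lost without crosslinked IP replicate 1 (1.27, edgeR adjusted p = 0.220) and by DESeq2's Wald test (2.48, adjusted p = 0.107). The Hsp83 intron entry did not pass (1.5 ± 0.93). With UV in the inputs the change was -2.32 ± 0.78 for the Hsp83 intron entry (edgeR adjusted p = 0.0655) and -1.72 ± 0.66 for that of Hsc70-4 (0.110); neither passed, while 22.2% of tested intron entries did.

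The mRNA features of Hsp83 were the one member entry that changed with UV in the inputs. They had 75 reads in the input without UV and 42 and 33 in those with UV, or 6.0, 3.39 and 2.42 CPM. As a share of the gene's reads that was 3.16% (95% Wilson interval 2.53% to 3.94%) against 1.52% and 1.05%, and the groups did not overlap. With 2 libraries against 1, the smallest p of an exact permutation test is 0.333. Over all genes the mRNA share was also lower with UV in the inputs, at 6.11% against 5.47% and 5.81%, on a total that holds many intron reads. Over exon and mRNA reads alone it was 10.3% against 7.65% and 7.91% for all genes, and 3.18% against 1.52% and 1.06% for Hsp83. The log2 change of the Hsp83 mRNA entry was -1.15 ± 0.30 (SE, edgeR adjusted p = 0.0176), where 1.05% of tested mRNA entries were called lower. The exons of the same gene did not pass in that comparison (0.19 ± 0.30). The call was lost without crosslinked input replicate 1 (-1.38, edgeR adjusted p = 0.0745) and without replicate 2 (-0.68, edgeR adjusted p = 0.497), which leave 1 library on each side.

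After the pull-down the Hsp83 mRNA features had 2 reads without UV and 2 and 3 with UV, and they were lower in the crosslinked IP than in the crosslinked input (-2.55 ± 0.55, edgeR adjusted p = 0.000611). Those of Hsc70-5 (-2.20 ± 0.59, edgeR adjusted p = 0.00406) and Hsc70-4 (-1.25 ± 0.46, 0.0281) were lower too. So were 55% of all tested mRNA entries, with a median of -1.66 (683 of 1242). The mRNA features of Hsc70-3 did not pass (-1.71 ± 0.95). The Hsc70-4 mRNA call was lost without crosslinked input replicate 2 (-1.14), crosslinked IP replicate 1 (-1.04) or crosslinked IP replicate 2 (-1.23), with DESeq2 size factors (-1.09) and with library size alone (-0.26). The Hsc70-5 mRNA call was lost without crosslinked IP replicate 2 (-1.87) and with library size alone (-1.22). By DESeq2's Wald test 0 of the 3 passed, with adjusted p-values of 0.0587 for Hsp83, 0.441 for Hsc70-4 and 0.222 for Hsc70-5. Among the 4 members with a tested mRNA entry, Hsc70-5 had the largest share of its reads counted as mRNA in each library. The share was 24.2% in the input without UV (95% Wilson interval 16.5% to 33.9%) and 15.2% and 17.9% in those with UV. In the IP library without UV it was 17.4% (4 reads, 95% Wilson interval 6.98% to 37.1%). In those with UV it was 10.7% and 7.02%, on 2 reads each (95% Wilson intervals 2.94% to 31.4% and 1.98% to 22.6%). Over all genes the share was 6.11% in the input without UV and 2.42% to 2.58% in the IP libraries, with many intron reads in that total. Over exon and mRNA reads alone it was 10.3% for all genes and 24.4% for Hsc70-5 in the input without UV. In the IP libraries that share was 4.80% to 5.23% for all genes and 7.02% to 17.4% for Hsc70-5. A large share was not particular to Hsc70-5, as the listed chaperone gene p23 had 23 exon and 10 mRNA reads in the input without UV.

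**Figure D3:**
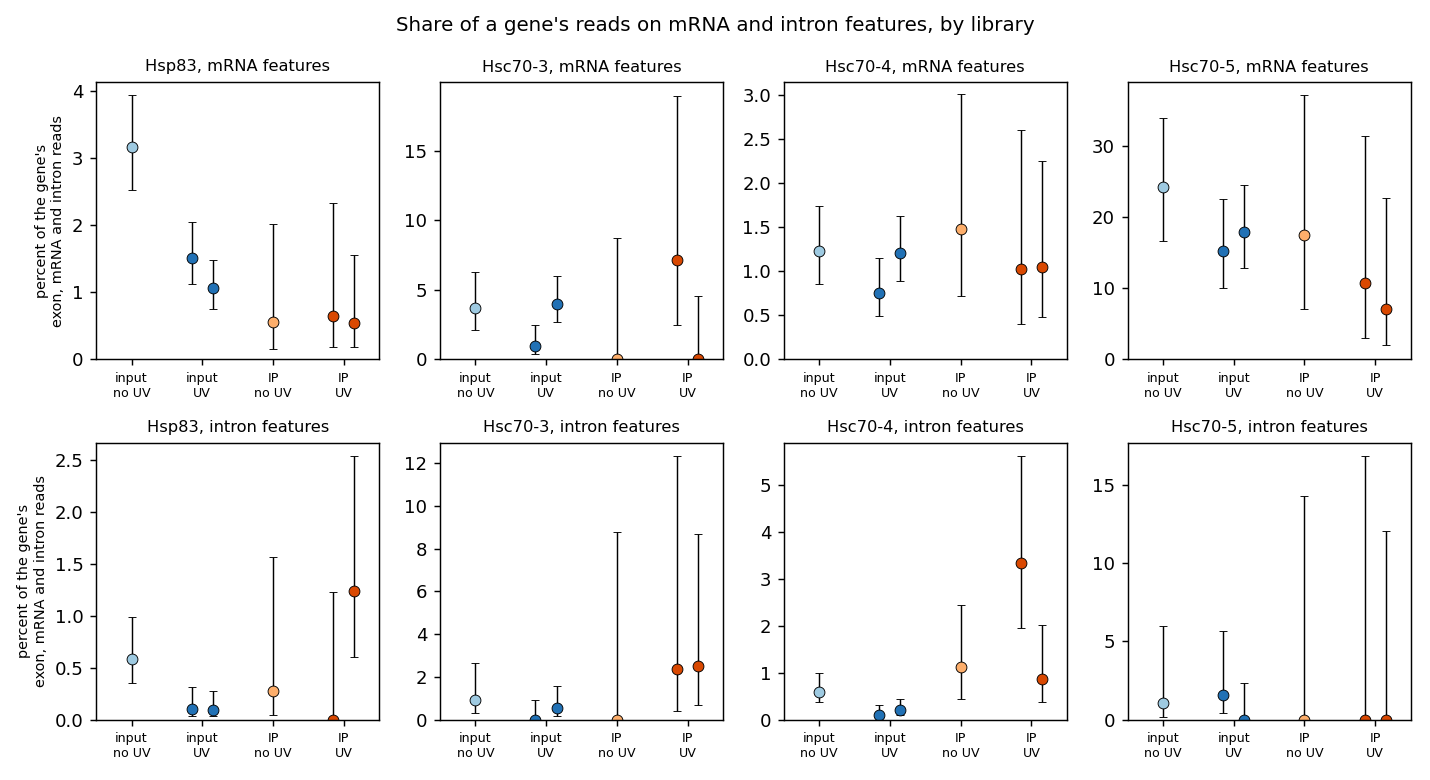
Percent of a gene's exon, mRNA and intron reads that lie on its mRNA features (upper row) and intron features (lower row), with 1 point per library and 95% Wilson intervals, which cover counting error only. Hsp83 mRNA features fall from 3.16% in the input without UV to 1.52% and 1.05% in the crosslinked inputs, and the intervals of the IP libraries are wide.

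Other chaperone genes were taken from lists of inducible Hsp70 genes, further Hsp70 and small heat shock genes, Hsp90 partners, Hsp40 and exchange factors, chaperonins and chaperones of the endoplasmic reticulum. Of 55 such genes with exon features, 42 passed the filter on low counts. In the inputs 5 of them rose with UV, 0 fell and 37 did not pass, with a median log2 change of 0.41, while 4.25% of tested exon entries were called higher. Those that rose were Calr (1.41), a lectin chaperone of the endoplasmic reticulum, the Hsp40 Droj2 (0.87), and CCT5 (0.86), CCT4 (0.84) and CCT8 (0.79), subunits of the cytosolic chaperonin. Calr exons had 3.12 CPM in the input without UV and 7.10 and 10.8 CPM in those with UV, so its groups did not overlap. These counts moved with the setting: edgeR called 0 without crosslinked input replicate 2 and 1 higher without replicate 1, but 10 higher and 2 lower without either crosslinked IP library. With only the inputs fitted it called 9 higher and 2 lower of 43 tested, and with DESeq2 size factors or without rRNA 1 higher of 42. With at least 10 counts in every library it called 8 of 15 higher, where 35.3% of all entries so tested were called. DESeq2's Wald test called 0 of the 13 that had an adjusted p. Without a crosslinked input library 29 (replicate 2) or 31 (replicate 1) of the listed genes were tested, and without a crosslinked IP library 43. Of the same 42 genes 2 rose with UV in the IP and 0 fell, beside 2.81% of tested exon entries called higher. One was Pdi, a disulphide isomerase (1.18, edgeR adjusted p = 0.0256), with 11.1 CPM without UV and 20.1 and 23.3 CPM with UV. The other was the Hsp40 mrj, which had 0 exon reads in the non-crosslinked IP and 4.75 and 14.5 with UV. Both calls were lost without crosslinked IP replicate 2. Without replicate 1 the listed genes had 2 higher and 3 lower, and with DESeq2 size factors 1 higher and 1 lower.

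In the crosslinked IP against the crosslinked input 30 of the 42 were lower, 0 were higher and 12 did not pass, beside the 32.4% of tested exon entries called lower. With library size alone 3 were lower and 3 higher, and DESeq2's Wald test called 5 lower. Among the Hsp90 partners these included Stip1, which links Hsp90 to Hsp70 (-1.51), Gp93, the Hsp90 of the endoplasmic reticulum (-1.31), and Cdc37, a kinase co-chaperone (-1.15; not called without crosslinked IP replicate 2, -0.81, or crosslinked input replicate 2, -1.18). Of the chaperonins 8 of 8 cytosolic CCT subunits were lower, from -1.66 for CCT6 to -0.70 for CCT2, though CCT1, CCT2 and CCT4 turned to 0.20, 0.31 and 0.17 with library size alone and were not called without crosslinked IP replicate 1. The exchange factor stv had -1.70, and Hsf, the heat shock transcription factor, -0.93 (0.075 with library size alone and -0.27 without crosslinked IP replicate 2). The heat-inducible Hsp70Aa had 187, 135 and 190 exon reads in the inputs (non-crosslinked first) and 17.9, 11 and 9.4 in the IP libraries, and its log2 change was -2.66. Hsp70Aa and Hsp70Ab are near-identical copies that share reads, so their values are not independent and each is uncertain. The UV comparisons and this one share the crosslinked libraries, so their values are given side by side only.

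The exon levels most like those of Hsp83 over the 6 libraries, among 194 genes with at least 50 exon reads in every library, were those of rudhira (Pearson r = 0.989 on log2(CPM + 1)), eEF2 (0.964) and CG34347 (0.958). eEF2 encodes an elongation factor of translation. Those most like Hsc70-4 were zip (0.917), the heavy chain of non-muscle myosin, Nup98-96 (0.854), a nucleoporin gene, and cno (0.852), which encodes a junction protein. These values describe 6 libraries that share depth and kind of library, and carry no test. In the crosslinked IP against the crosslinked input the 6 genes lay between -1.88 (zip) and -1.34 (CG34347), beside -1.46 for Hsp83 and -1.37 for Hsc70-4. The 6 genes were picked on these same libraries, so values near those of the members are built into the choice.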

How the data were processed

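Per library the authors deposited estimated counts per annotated feature, with reads divided between features, and the same values as RPM; the estimated counts were used. The submitters' processing notes name bcl2fastq 2.19, STAR 2.5.2b and bedtools 2.29.0, and the builds mm10 and dm6 without a role; strand and duplicate removal are not given in the sources used here. A deposited ratio table was not used. Counts were summed by gene within the exon, mRNA and intron classes, with other features as listed (48373 entries), rounded, and tested with edgeR 4.0.16 (R 4.3.3): 4 groups, TMM, filterByExpr, quasi-likelihood F test, two-sided, Benjamini-Hochberg adjustment at 0.05, common dispersion 0.0191. Reads outside annotation (2.15% to 13.6%) were left out. In simulated data with 200 of 13009 entries changed 4-fold, 53.5% were recovered for UV in inputs (94.2% at a mean count of 20 or more) and 42.5% for UV in IP (75.3%). Of the calls in these simulated data 5.31% and 8.60% were false. Smaller changes were not simulated, so recovery of changes of the size fitted for Hsp83 or the cognate genes is not known. Replicates differed by more than counting noise (chi-square per degree of freedom 11.7 over 8888 entries in the inputs, 6.37 over 5498 in the IP). Wilson intervals and floors cover counting error only; intervals of log2 changes come from the fit. Of 13336 gene names, 13190 matched RefSeq (Release 6). Named were all members, the listed chaperone genes called for UV, some of those called in crosslinked IP against input (chosen after their values were seen), and the 3 genes most correlated with Hsp83 and with Hsc70-4. Both crosslinked groups enter more than 1 comparison. Members and lists were chosen with earlier results of these data known. DESeq2 1.42.0 and 13 other alternatives were run.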

Additional observations from a re-analysis of the deposited data

Results flagged for a closer look

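The difference between the UV effect in the IP and that in the inputs passed the test for 3 of 74 tested entries of the listed chaperone and heat shock genes, and for 0 of 15 of the 9 members, beside 4.78% of all tested entries. For the introns of Hsp60C, a mitochondrial chaperonin gene, the log2 difference was 7.46 (edgeR adjusted p = 0.0314). They had 25.5 reads without UV and 14 and 23 with UV among the inputs, and 0 without UV and 4.6 and 12.4 with UV among the IP libraries, so the fitted size rests on a library with 0 reads and is no fold. The call was lost without crosslinked IP replicate 2 (adjusted p = 0.0702) and with DESeq2 size factors (0.0632).

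The transcripts lncRNA:Hsromega-RB and lncRNA:Hsromega-RG of the heat shock RNA omega gene had the same values, with a log2 difference of 2.32 each (edgeR adjusted p = 0.0169). Their counts were the same in all 6 libraries, so these are not independent calls. The RB feature had 49.6 input reads without UV and 20.3 and 33 with UV, and 9.75 IP reads without UV and 22.1 and 30.7 with UV. In CPM that is 3.97 against 1.64 and 2.42 in the inputs, and 4.83 against 10.0 and 10.5 in the IP, so the groups did not overlap and moved in opposite directions. The RF feature, which had the most reads of this gene, had 8.29 against 4.10 and 6.08 CPM in the inputs. In the IP it had 27.6 against 35.9 and 29.3 CPM. Of the gene's features only RB and RG were called. The calls were lost without crosslinked input replicate 1 (2.13, edgeR adjusted p = 0.0900) and with library size alone (2.03, 0.0585).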

How the results depend on the processing

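Of 428 values of members and settings, 375 kept their direction and their side of the threshold, as did 198 of 268 values of the other chaperone genes named. Member values that were not called keep their side easily, so the first count does not measure how firm the calls are. Settings in which a member's call was lost are given with that call above. The number of entries tested changed with the setting, so a lower count of calls need not be a lower share. For UV in IP the main fit called 13.5% of 13009 entries, and the filter of 10 counts gave 28.1% of 3149. The Wald test had 2416 entries for UV in inputs and the interaction, 3677 for UV in IP and 11748 for crosslinked IP against input. The counts of entries called moved most: for UV in inputs (1330) to 625 with exon, mRNA and intron reads added per gene, 2177 with only the libraries compared, 401 by DESeq2's Wald test and 457 to 2309 with a library left out; for UV in IP (1752) to 885 with at least 10 counts in every library, 631 by the Wald test and 1471 to 2794 with a library left out. For crosslinked IP against input (6938) they were 2313, 2899 and 4507 to 5958 under the same 3 settings, and for the interaction (622) 373 added per gene, 244 by the Wald test and 463 to 1235 with a library left out; the cause was not tested, apart from fewer entries or libraries. The share of calls that were higher was 46.6%, 39.7%, 52.2% and 64.8% in these 4 comparisons, 34.4%, 20.4%, 58.7% and 47.1% with DESeq2 size factors, 57.4%, 28.8%, 90.3% and 43.4% with library size alone, and 44.3%, 54.7%, 46.2% and 74.8% without rRNA. Without rRNA in the total the log2 ratios of crosslinked IP over input CPM were -1.56 for Hsp83 (from -0.44), -1.83 for Hsc70-3 (from -0.71), -1.48 for Hsc70-4 (from -0.35) and -1.25 for Hsc70-5 (from -0.13), and over exon and intron reads alone the Hsc70-3 intron share in the crosslinked IP was 2.55% (from 2.45%).

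Among members, signs turned for values that were not called. For UV in IP, Hsp83 came to -0.26 with DESeq2 size factors and by the Wald test, -0.091 with library size alone, -0.0079 with no filter and -0.46 to 0.20 with a library left out. Hsc70-3 came to -0.33 to 0.46 with a library left out and -0.011 by the Wald test, Hsc70-4 to 0.018 without rRNA, and Hsp26 to -0.052 to 1.72 with a library left out. Hsc70-5 came to -0.34 with DESeq2 size factors, -0.17 with library size alone, -0.067 with at least 10 counts, -0.089 with no filter, -0.10 added per gene, -0.35 by the Wald test, and -0.41 to 0.12 with a library left out. Hsp68 for UV in inputs came to -0.55 to 0.21 with a library left out. In crosslinked IP against input, Hsp22 and Hsp23 came to 0.34 and 0.65 with library size alone and to 0.67 (Hsp22) and -0.69 to 0.26 (Hsp23) with a library left out; Hsf, CCT1, CCT2 and CCT4 came to 0.075, 0.20, 0.31 and 0.17 with library size alone. For the interaction, Hsp83 and Hsc70-3 came to 0.11 and 0.14 without rRNA and to 0.056 and 0.16 added per gene; with a library left out Hsc70-3 ran from -0.64 to 0.013, Hsp26 from -0.34 to 1.44 and Hsp68 from -0.89 to 0.046. Hsp26 in crosslinked IP against input passed without rRNA (-1.18), with no filter (-1.27) and without crosslinked IP replicate 1 (-1.97).

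The numbers 1 and 2 of the crosslinked libraries were not taken as pairs: differences between replicates correlated at 0.061 over 13009 entries and 0.11 over 2506 with a mean count of at least 50. With the replicate block the counts were 1616, 2016, 7003 and 930, and Hsp26 in crosslinked IP against input passed (-1.07, edgeR adjusted p = 0.0494). Without UV there is 1 library of each kind, and small heat shock genes with under 10 IP reads are limited by depth.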
